A study of Mus musculus with 12 samples.

Results

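The potassium channel genes of the mouse ventricle were followed here as every gene symbol of the deposited table that starts with Kcn. There were 98 such symbols among the 24390 of the table. The mean normalized count over the 12 libraries was 10 or more for 46 of them, as for 13030 genes in all, and these 46 genes were tested. The other 52 were under that mean, and 13 of them were at 0 in every library. The series sequenced total RNA from ventricles of 8 week old C57BL/6 mice, with 3 libraries in each of 4 groups. TG_AAV hearts carry a transgene for a Cas9 without nuclease activity joined to VPR activation domains and received the AAV9 vector TRISPR, which the labels name together with Mef2d. TG_saline hearts carry the transgene and received saline, WT_AAV hearts are wild-type and received the vector, and WT_saline hearts are wild-type and received saline. The last 3 groups are called the controls below. The label of the activator names Myh6, a gene whose promoter is active in heart muscle cells, while RNA was taken from whole ventricles with all their cell types. The labels do not say that the libraries of a group come from separate animals, so p-values reflect how far these libraries vary, in part perhaps for technical reasons.

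Potassium channels let potassium leave the cell and so end the action potential and hold the resting voltage. In the mouse ventricle the early repolarization is carried by transient outward channels, whose pore subunits of the Kcnd family work with the auxiliary subunit Kcnip2, and by delayed rectifiers of the Kcna and Kcnb families. Inward rectifiers of the Kcnj family and background channels of the Kcnk family set the resting potential, and channels opened by calcium, sodium, ATP shortage or G proteins adjust it.

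Depth ran from 10233281 to 14911986 reads per library. Mef2d, the gene the vector is named with, stood at 1989, 2231 and 1897 normalized counts in the 3 TG_AAV libraries and at 833 to 1178 in the 9 control libraries. Its log2 change against the controls was 1.07 (SE 0.09, limma adjusted p = 5.01e-06). Chi-square values per degree of freedom between libraries within a group were 5.18 to 27.1, above counting noise. The summed level of 8 ventricular muscle markers was 612700 to 664200 in TG_AAV, 714800 to 797800 in TG_saline, 758000 to 873000 in WT_AAV and 798600 to 890700 in WT_saline, and 4 of the 8 (Pln, Ryr2, Tnni3 and Tnnt2) fell in TG_AAV. This count and the next ones are limma calls against the mean of the 3 control groups. Over all genes tested 12.0% rose and 9.69% fell there. Of 5 conduction system markers 2 fell and 0 rose, and of 5 fibroblast markers 3 rose and 0 fell. Counts higher and lower were 0 and 1 of 5 endothelial markers, 0 and 0 of 6 mural markers, 0 and 0 of 5 macrophage markers, 0 and 0 of 5 atrial markers, 1 and 1 of 4 Schwann and neuronal markers, and 0 and 1 of 2 skeletal muscle markers. Against TG_saline alone, 2 of the 8 ventricular markers fell and 0 rose, and 1 of the 5 conduction markers fell and 0 rose. Of the 5 fibroblast markers 2 rose and 0 fell there, beside 3.69% of all genes higher and 2.40% lower. Lymphocyte markers summed to at most 33.3 normalized counts in any library. The atrial light chain gene Myl7 was over 1000 normalized counts in TG_AAV 1, WT_AAV 1 and WT_AAV 3, was 728 in TG_saline 1 and 258 in TG_saline 3, and was at most 19.1 elsewhere. Results that turn on these 3 libraries are also given without them. In WT_saline 3, WT_AAV 2 and WT_AAV 3 the related factor Mef2a was at 3343, 3253 and 3051 normalized counts, against 4059 to 4384 in the other 3 wild-type libraries. Mef2a was at 3372 to 3789 in TG_saline and 2834 to 3028 in TG_AAV. These 3 wild-type libraries thus stand apart in Mef2a within the wild-type groups only, and results were recomputed without them as well. Xist was over 1000 normalized counts in TG_AAV 3, TG_saline 1, WT_AAV 3, WT_saline 1 and WT_saline 3, and a fit with a term for these libraries was also made. In these whole-ventricle libraries fewer cells of a type and less RNA per cell cannot be told apart.

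Of the 46 channel genes, 12 differed between TG_AAV and the mean of the 3 control groups, 4 higher and 8 lower, by limma on log2(normalized count + 1) with a Benjamini-Hochberg adjusted p under 0.05 over all 13030 genes. That is 26.1% of the channel genes, beside 21.7% of all genes tested. In the higher direction it is 8.70% of the channel genes beside 12.0% of all genes, and in the lower direction 17.4% beside 9.69%. The genes that fell were Kcnv2, Kcnq5, Kcnip2, Kcnj3, Kcnh2, Kcnk3, Kcnj5 and Kcnn2, and Kcnj4, Kcnn3 and Kcnj12 were among those that rose. The median log2 change of the 46 was -0.14, against -0.0031 over all genes tested, and 31 of the 46 were below 0, against 50.5% of all genes. The 3 TG_AAV values lay outside all 9 control values for 10 channel genes, 5 above (among them Kcnj12, Kcnj4, Kcnn3 and Kcnc1) and 5 below (Kcnh2, Kcnip2, Kcnk3, Kcnq5 and Kcnv2). That is 21.7% of the 46, beside 17.5% of all genes tested (10.2% above and 7.26% below). Beside the genes that fell, the summed ventricular and conduction markers were lower in TG_AAV than in every control library, and their part in the result was not tested. Beside the genes that rose, the fibroblast markers summed to 12840 to 13500 normalized counts in TG_AAV, 9181 to 9886 in TG_saline, 8845 to 12120 in WT_AAV and 8927 to 9547 in WT_saline, and their part was not tested either. The sum of the Schwann and neuronal markers was also highest there, at 315 to 329 in TG_AAV, 236 to 299 in TG_saline, 229 to 263 in WT_AAV and 163 to 233 in WT_saline. Of the 7 genes on that list Uchl1 rose (209 in TG_AAV, 106 in TG_saline, 59.1 in WT_AAV and 61.4 in WT_saline on average), Dbh fell, and Prph and Th averaged under 5 normalized counts in every group. The 4 tested genes of the list had a median log2 change of -0.16 against the controls. The part of this list was not tested. Kcnj4 and Kcnc1 passed the minimum of 10 only through TG_AAV, since their means over the 9 control libraries were 5.95 and 8.25 normalized counts.

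**Figure D1:**
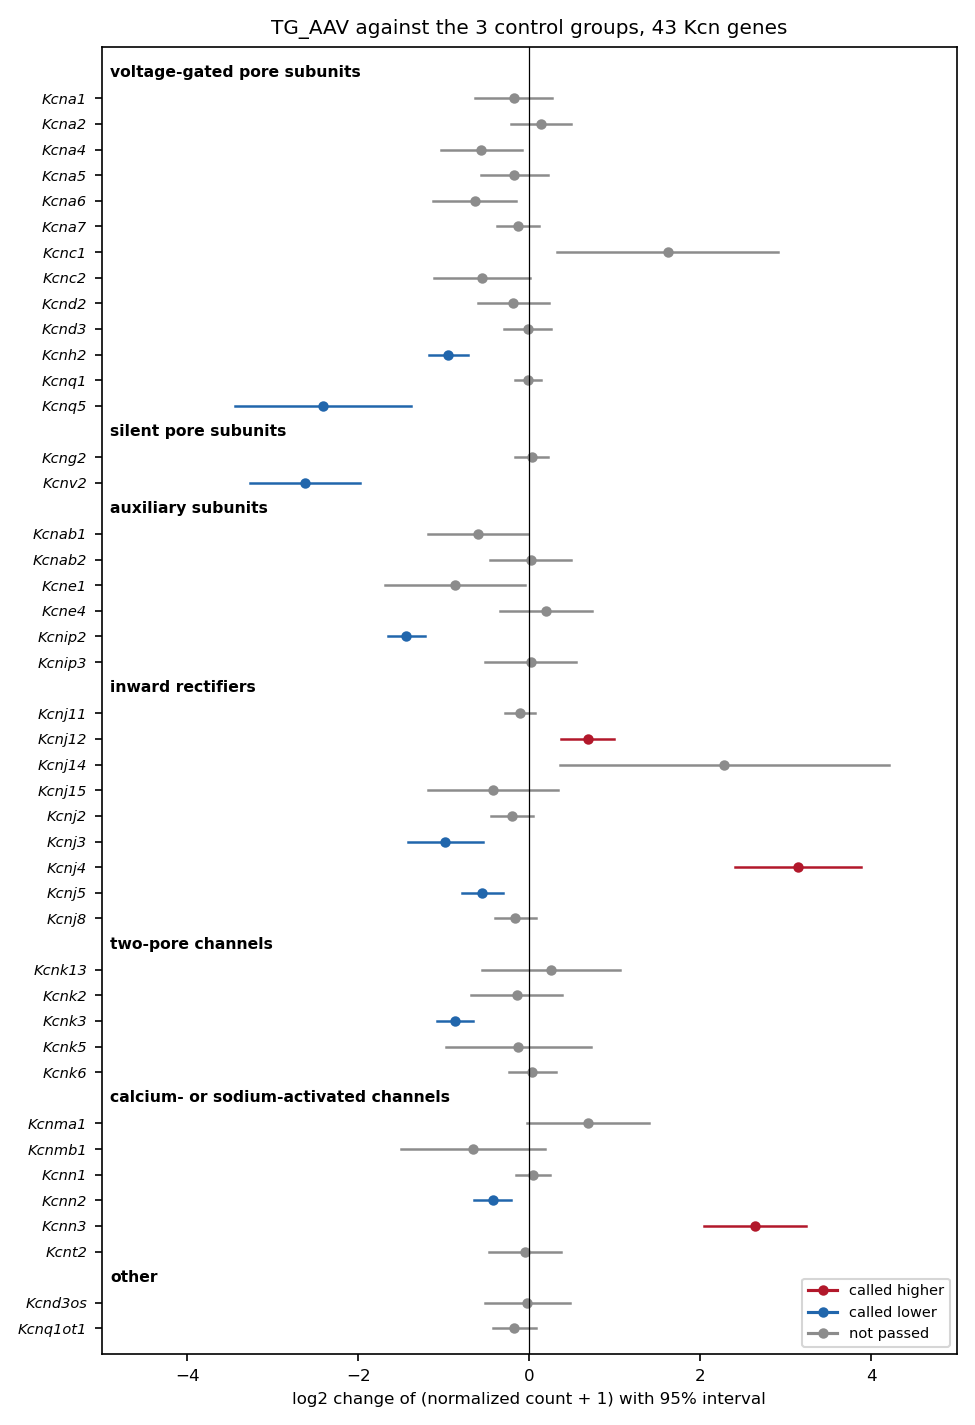
Log2 change of TG_AAV against the 3 control groups for 43 tested channel genes, grouped by role, with 95% intervals as horizontal lines. Red marks 3 genes called higher, blue the 8 called lower and grey those that did not pass.

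**Figure D2:**
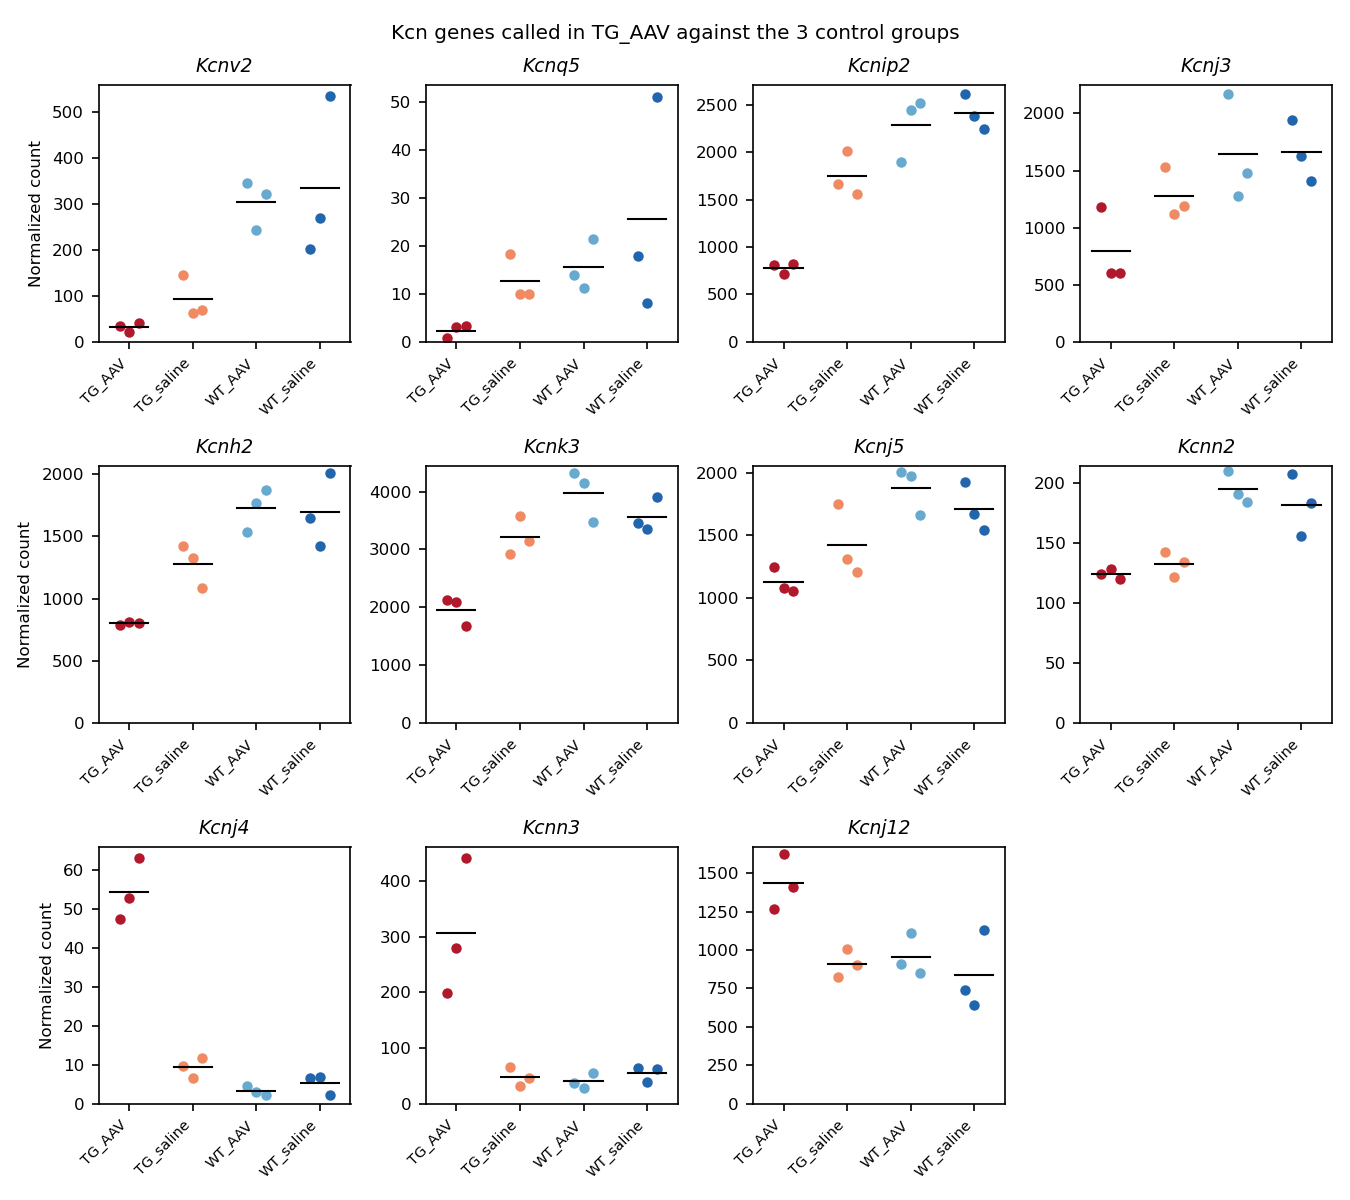
Normalized counts per library of 11 called channel genes in TG_AAV, TG_saline, WT_AAV and WT_saline (3 points each, black lines are group means, every vertical axis starts at 0). The 3 TG_AAV points lie apart from all control points for Kcnv2, Kcnq5, Kcnip2, Kcnh2, Kcnk3, Kcnj4, Kcnn3 and Kcnj12, and overlap them for Kcnj3, Kcnj5 and Kcnn2.

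Start-site sequences were looked up for the genes that moved, since MEF2 factors bind DNA at promoters and enhancers. RefSeq windows on GRCm38.p6, from 250 bases before to 50 bases after the start, were found for 33 of the 46 tested genes (47 windows), among them 5 of the 8 that fell (6 windows) and 3 of the 4 that rose (3 windows). The authors' build is mm9, so these coordinates do not apply to their files. The MEF2 site was in 0 of the 47 windows and in 3.19% of all 32851. The GC box GGGCGG, read on both strands with its reverse complement CCGCCC, was in 19 of the 47 windows and in 35.7% of all. It was in 4 of the 6 windows of genes that fell and in 1 of the 3 of genes that rose. TATAAA was in 2 of the 47 (13.6% of all) and the E box CACGTG in 5 of the 47 (7.15% of all), with 0 of either in the windows of genes called. Shown here are the windows of a pair that fell, Kcnip2 (chr19:45816014-45816313, minus strand) and Kcnh2 (chr5:24329542-24329841, minus strand), and of a pair that rose, Kcnn3 (chr3:89519914-89520213, plus strand) and Kcnj4 (chr15:79505192-79505491, minus strand). Each is written 5′ to 3′ along the gene's strand, with GGGCGG or CCGCCC in capitals.
Kcnip2: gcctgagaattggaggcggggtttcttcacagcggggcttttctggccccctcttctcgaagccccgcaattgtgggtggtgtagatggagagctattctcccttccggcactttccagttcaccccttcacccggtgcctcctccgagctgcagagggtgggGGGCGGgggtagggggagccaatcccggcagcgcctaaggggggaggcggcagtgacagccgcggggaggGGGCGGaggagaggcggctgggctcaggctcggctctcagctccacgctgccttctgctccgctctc
Kcnh2: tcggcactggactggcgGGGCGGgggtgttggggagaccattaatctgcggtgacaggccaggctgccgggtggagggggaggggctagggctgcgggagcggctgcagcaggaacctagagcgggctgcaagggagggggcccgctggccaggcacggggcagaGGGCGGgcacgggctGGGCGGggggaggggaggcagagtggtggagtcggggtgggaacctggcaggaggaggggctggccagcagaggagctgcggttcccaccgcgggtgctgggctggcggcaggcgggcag
Kcnn3: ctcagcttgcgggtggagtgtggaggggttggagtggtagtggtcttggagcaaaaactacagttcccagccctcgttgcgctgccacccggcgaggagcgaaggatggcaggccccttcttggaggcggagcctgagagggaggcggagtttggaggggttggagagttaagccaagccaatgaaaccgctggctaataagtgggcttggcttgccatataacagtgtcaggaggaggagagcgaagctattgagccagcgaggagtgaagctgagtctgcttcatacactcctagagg
Kcnj4: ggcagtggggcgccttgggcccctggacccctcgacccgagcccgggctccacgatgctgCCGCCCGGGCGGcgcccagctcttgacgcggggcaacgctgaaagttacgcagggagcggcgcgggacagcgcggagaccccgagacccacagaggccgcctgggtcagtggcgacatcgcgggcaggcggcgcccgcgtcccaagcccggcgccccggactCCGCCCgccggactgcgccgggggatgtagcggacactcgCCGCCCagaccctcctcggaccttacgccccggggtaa
The GC content of these windows was 67% for Kcnip2, 74.3% for Kcnh2, 57.7% for Kcnn3 and 76.0% for Kcnj4. The GC box occurred 2 times in the window of Kcnip2, 3 times in that of Kcnh2, 0 times in that of Kcnn3 and 4 times in that of Kcnj4.

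Among the subunits of the transient outward channel, the auxiliary gene fell while the pore genes did not pass the test. Kcnip2, a calcium-binding partner that brings Kcnd pores to the membrane, had 809, 716 and 823 normalized counts in TG_AAV. It had 1664, 2012 and 1562 in TG_saline, 1893, 2447 and 2518 in WT_AAV, and 2616, 2380 and 2245 in WT_saline. Every TG_AAV library was below every control library. Among the controls, TG_saline 1 and TG_saline 3 lay below all wild-type libraries, and TG_saline 2 lay above WT_AAV 1. Its log2 change against the controls was -1.44 (SE 0.10, limma adjusted p = 1.43e-06). The pore gene Kcnd2 averaged 515 ± 44.95 normalized counts in TG_AAV, against 610 ± 184 over the 9 control libraries (SD), and its log2 change was -0.19 (SE 0.19, limma adjusted p = 0.522). Within the wild-type groups it was uneven, at 690, 427 and 701 in WT_AAV and 801, 938 and 472 in WT_saline. Without the 3 wild-type libraries that stand apart, its change was -0.36 with a limma adjusted p of 0.0349. The other pore gene, Kcnd3, averaged 503 ± 91.2 in TG_AAV and 508 ± 72.8 in the controls (log2 -0.02, limma adjusted p = 0.935). Per kilobase of exon, the ratio of Kcnip2 to the sum of Kcnd2 and Kcnd3 was 1.25 to 1.75 in TG_AAV, 2.88 to 4.26 in TG_saline, 2.81 to 4.94 in WT_AAV and 3.00 to 4.24 in WT_saline. The TG_AAV ratios thus lay below those of every control library.

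The other auxiliary genes tested did not pass. Kcne1, which slows the opening of Kcnq1 channels, averaged 35.1 ± 19.1 normalized counts in TG_AAV and 65.2 ± 32.5 in the controls (log2 -0.87, limma adjusted p = 0.12). Kcnab1, a beta subunit of Kcna channels, averaged 14.4 ± 4.80 in TG_AAV and 22.4 ± 5.64 in the controls (log2 -0.60, limma adjusted p = 0.13). Kcnab2, Kcne4 and Kcnip3 had log2 changes of 0.01 to 0.20. In all, 1 of the 6 tested auxiliary genes fell and 0 rose, beside 9.69% and 12.0% of all genes tested. Their median log2 change was -0.29.

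Of the voltage-gated pore genes, 30 were in the table and 16 were tested. Of these, 1 rose and 2 fell, beside 12.0% and 9.69% of all genes tested. Kcnh2, the pore of the rapid delayed rectifier known from human long QT syndrome, had 789, 809 and 801 normalized counts in TG_AAV. It had 1423, 1325 and 1086 in TG_saline, 1536, 1771 and 1875 in WT_AAV, and 1648, 1421 and 2009 in WT_saline. The 3 TG_AAV libraries lay close together and below all 9 control libraries. The log2 change was -0.95 (SE 0.10, limma adjusted p = 5.04e-05). Kcnq1, the pore of the slow delayed rectifier, did not pass, with 620 ± 4.71 in TG_AAV and 629 ± 49.4 in the controls (log2 -0.02, 95% interval -0.17 to 0.14).

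Kcnq5, a pore of the neuronal M-type current, had 0.729, 2.99 and 3.18 normalized counts in TG_AAV. It had 18.4, 9.94 and 9.94 in TG_saline, 13.8, 11.2 and 21.4 in WT_AAV, and 17.8, 8.02 and 51.0 in WT_saline. The groups did not overlap, but TG_AAV rested on 8 reads in all, against 152 over the 9 control libraries. The depth-corrected ratio of these reads was 0.124, with a 95% interval of 0.0524 to 0.2498 for counting error only. The fitted log2 change was -2.41 (SE 0.48, limma adjusted p = 0.00313), and without the 3 libraries rich in Myl7 it was -1.87 and no longer passed (limma adjusted p = 0.0629).

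The ultrarapid and other shaker-type pores gave no call against the controls. Kcna5, a pore of the ultrarapid current, averaged 299 ± 34.6 normalized counts in TG_AAV and 346 ± 84.8 in the controls (log2 -0.18). Kcna4, a slow transient outward pore, averaged 59.0 ± 12.3 in TG_AAV and 90.2 ± 33.1 in the controls (log2 -0.56, limma adjusted p = 0.0887). That value was -0.65 with a limma adjusted p of 0.0289 without WT_saline 2. Against WT_saline alone Kcna4 passed (-0.87, limma adjusted p = 0.0399), but the call was lost in 11 of 26 alternatives, among them those without WT_saline 1, WT_saline 3, TG_AAV 2, TG_AAV 3 or any TG_saline library (adjusted p up to 0.15). Kcna6 averaged 44.3 ± 14.1 in TG_AAV and 68.6 ± 16.7 in the controls (log2 -0.64, limma adjusted p = 0.0594). It passed on the same side of 0 without WT_AAV 2 (adjusted p = 0.0307), without TG_saline 2 (0.0446), without TG_AAV 3 (0.0498), by DESeq2 (0.0492) and with quantile scaling (0.0435). Kcna1, Kcna2 and Kcna7 had changes of -0.19, 0.14 and -0.13 on the log2 scale. Of the 6 tested Kcna genes 0 rose and 0 fell, beside 12.0% and 9.69% of all genes tested, and their median was -0.18.

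Among the tested Kcnc genes, pores of fast-spiking neurons, Kcnc1 was low everywhere. It had 19.7, 18.9 and 20.7 normalized counts in TG_AAV, 0, 1.10 and 10.8 in TG_saline, 17.2, 13.2 and 7.5 in WT_AAV, and 3.33, 8.02 and 13.0 in WT_saline. The TG_AAV values lay just above the highest control value, which came from WT_AAV 1. The log2 change against the controls was 1.62 (SE 0.60, limma adjusted p = 0.0725), and without TG_saline 3 it was 1.95 with an adjusted p of 0.0075. It also passed by DESeq2 (adjusted p = 0.0474) and with a pseudocount of 4 (0.0443). On reads, TG_AAV held 72 and the 9 control libraries 70, a depth-corrected ratio of 2.42 with a 95% interval of 1.71 to 3.41 for counting error. Against the 13 reads of TG_saline alone the ratio was 4.65 (2.55 to 9.14). Since Kcnc1 passed the minimum only through TG_AAV, these values are a description. Kcnc2 had a log2 value of -0.55 against the controls (limma adjusted p = 0.148).

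The silent subunits cannot conduct alone and change the gating of Kcnb pores when they join them. Kcnv2, the silent subunit known from a human cone photoreceptor disease, had 35.0, 21.9 and 40.6 normalized counts in TG_AAV. It had 146, 61.9 and 69.6 in TG_saline, 345, 244 and 323 in WT_AAV, and 202, 270 and 534 in WT_saline. The groups stood in steps: every TG_AAV library was below every TG_saline library, and every TG_saline library was below every wild-type library. The log2 change of TG_AAV against the controls was -2.63 (SE 0.30, limma adjusted p = 6.54e-05), and the reads were 121 in TG_AAV and 2035 in the 9 control libraries. Kcng2, a silent subunit abundant in heart muscle, averaged 2243 ± 388 in TG_AAV and 2186 ± 157 in the controls (log2 0.03, 95% interval -0.17 to 0.22). The other 8 silent subunit genes of the table were under a mean of 10.

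Of the 4 genes for strong inward rectifiers, which hold the resting potential of heart muscle, 2 rose against the controls, beside 12.0% of all genes tested. Kcnj4, counted here, passed the minimum only through TG_AAV. Kcnj2, the main subunit of this current in mouse ventricle, had 1193, 1446 and 948 normalized counts in TG_AAV, 1111, 1198 and 966 in TG_saline, 1176, 1348 and 1290 in WT_AAV, and 1747, 2089 and 1621 in WT_saline. The WT_saline libraries stood above all other 9, which overlapped with each other. Kcnj2 did not pass against the mean of the controls (log2 -0.20, limma adjusted p = 0.231), but was lower in TG_AAV than in WT_saline (-0.62, limma adjusted p = 0.00901).

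Kcnj12, another subunit of the same current, had 1270, 1625 and 1413 normalized counts in TG_AAV. It had 824, 1006 and 906 in TG_saline, 908, 1114 and 851 in WT_AAV, and 743, 644 and 1129 in WT_saline. All TG_AAV values were above all control values, and the log2 change was 0.68 (SE 0.14, limma adjusted p = 0.00468). Per kilobase, the ratio of Kcnj12 to Kcnj2 was 2.11 to 2.95 in TG_AAV, 1.47 to 1.86 in TG_saline, 1.31 to 1.64 in WT_AAV and 0.61 to 1.38 in WT_saline. The TG_AAV ratios lay above every control ratio.

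Kcnj4, a strong rectifier better known from brain, had 47.4, 52.8 and 62.9 normalized counts in TG_AAV. It had 9.66, 6.63 and 11.8 in TG_saline, 4.60, 3.04 and 2.14 in WT_AAV, and 6.66, 6.87 and 2.17 in WT_saline. The lowest TG_AAV library was far above the highest control library, on 197 reads in TG_AAV and 52 in the 9 control libraries. The ratio of reads was 8.90 (95% interval 6.53 to 12.3, counting error only), and the fitted log2 change was 3.14 (SE 0.34, limma adjusted p = 4.40e-05). Since Kcnj4 passed the minimum only through TG_AAV, these values are a description. The conduction markers summed to 521 to 847 in TG_AAV and to 926 to 1954 over the 3 control groups. The sum of the Schwann and neuronal markers given above was highest in TG_AAV, where Uchl1 rose and Dbh fell. The 4 tested genes of that list had a median log2 change of -0.16, so the list did not rise as a whole. The part of either in this result was not tested.

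Kcnj14, the fourth gene of this kind, differed widely between libraries of the same group. It had 83.1, 87.7 and 83.5 normalized counts in TG_AAV, 123, 151 and 30.7 in TG_saline, 16.1, 2.03 and 5.36 in WT_AAV, and 91.0, 3.44 and 1.08 in WT_saline. All 6 transgenic libraries were above 5 of the 6 wild-type libraries, and WT_saline 1 stood with the transgenic ones. Against the controls the log2 change was 2.28 (SE 0.89, limma adjusted p = 0.0862), and without WT_saline 1 it was 2.83 (adjusted p = 0.00336). The depth-corrected ratio of reads was smaller than the fitted fold of 4.85, at 1.78 against the 9 control libraries (95% interval 1.53 to 2.07, counting error only) and 0.864 against TG_saline (0.734 to 1.02). Against WT_AAV the log2 change was 3.63 (limma adjusted p = 0.0342). This call was lost in 8 of 26 alternatives, among them those without WT_AAV 2, WT_AAV 3 or any TG_AAV library (adjusted p up to 0.272). A share of 34.3% of its 36-base words also occurs in transcripts of Gm5522, so its count is uncertain.

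**Figure D3:**
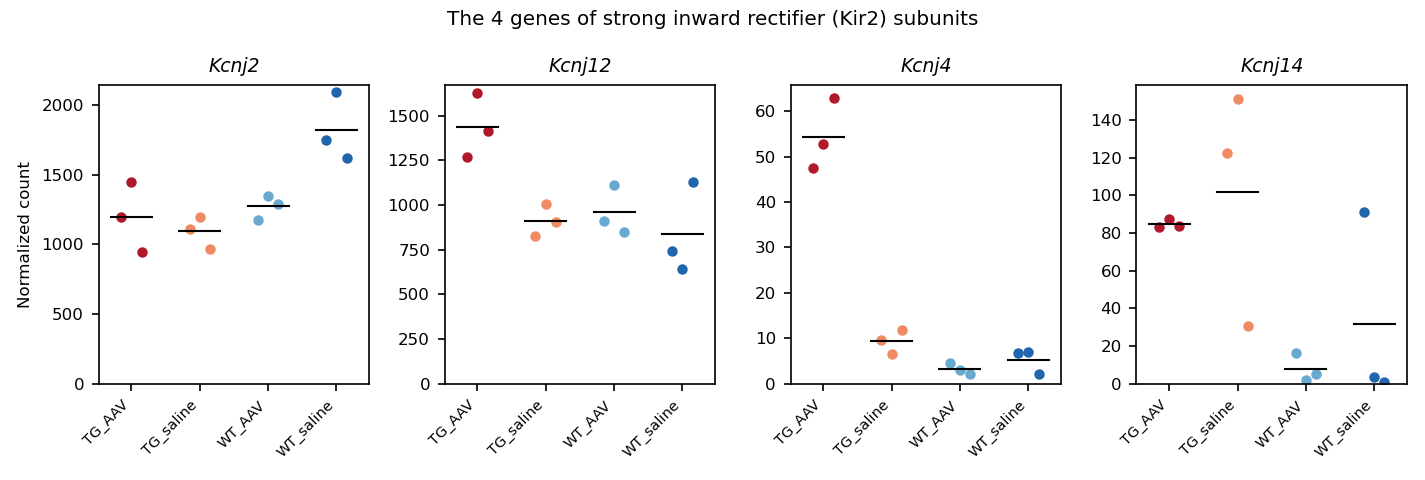
Normalized counts per library of the 4 genes for strong inward rectifier subunits in TG_AAV, TG_saline, WT_AAV and WT_saline (points are libraries, black lines group means, axes start at 0). Kcnj12 and Kcnj4 are highest in TG_AAV, Kcnj2 is highest in WT_saline, and Kcnj14 is high in the transgenic groups and in a single WT_saline library.

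Both subunits of the channel opened by acetylcholine through G proteins fell. Kcnj3 had 1181, 602 and 603 normalized counts in TG_AAV, 1527, 1119 and 1187 in TG_saline, 2173, 1275 and 1475 in WT_AAV, and 1942, 1630 and 1405 in WT_saline. TG_AAV 1 lay above TG_saline 2, and the other 2 TG_AAV libraries were below all controls. TG_AAV 1 and WT_AAV 1, each the highest of its group, are also libraries rich in Myl7. The log2 change was -0.98 (SE 0.20, limma adjusted p = 0.00422), and without the 3 libraries rich in Myl7 it was -1.20 (adjusted p = 0.000757). Kcnj5, its partner, had 1248, 1078 and 1057 in TG_AAV, 1752, 1312 and 1202 in TG_saline, 2008, 1974 and 1658 in WT_AAV, and 1924, 1665 and 1538 in WT_saline. A single TG_AAV library overlapped the lowest control library. The log2 change was -0.55 (SE 0.11, limma adjusted p = 0.00362), and -0.65 without the 3 libraries rich in Myl7 (adjusted p = 0.0132). Exons of Kcnj3 overlap Gm26794 on the opposite strand over 31.1% of their bases, and the strand setting of the counts is not given in the sources used here.

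The pores of the ATP-sensitive channels did not pass, while a sulfonylurea receptor that pairs with them fell. Kcnj11, the pore of heart muscle, averaged 1745 ± 59.2 normalized counts in TG_AAV and 1901 ± 292 in the controls (log2 -0.11, 95% interval -0.29 to 0.07). Kcnj8, the pore of blood vessel muscle and pericytes, averaged 587 ± 60.8 in TG_AAV and 662 ± 96.4 in the controls (log2 -0.16, 95% interval -0.40 to 0.08). Abcc9, the receptor that joins these pores, averaged 6054 normalized counts in TG_AAV, 9973 in TG_saline, 8723 in WT_AAV and 11070 in WT_saline, a log2 change against the controls of -0.71 (SE 0.07, limma adjusted p = 3.40e-05). Abcc8, the other receptor, did not pass (0.18, adjusted p = 0.255). Kcnj15 averaged 13.0 ± 3.35 in TG_AAV and 18.7 ± 5.67 in the controls (log2 -0.43, adjusted p = 0.421). Of the 9 tested inward rectifier genes 2 rose and 2 fell, beside 12.0% and 9.69% of all genes tested. Kcnj4, counted as risen, passed the minimum only through TG_AAV. The median log2 change of the 9 was -0.16.

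Among the tandem-pore background channels 1 of the 5 tested genes fell and 0 rose, beside 9.69% and 12.0% of all genes tested. Kcnk3, an acid-sensitive background channel of heart and lung vessels, had 2122, 2083 and 1672 normalized counts in TG_AAV. It had 2920, 3584 and 3145 in TG_saline, 4319, 4153 and 3475 in WT_AAV, and 3454, 3346 and 3906 in WT_saline. The highest TG_AAV library was below the lowest control library, and the log2 change was -0.87 (SE 0.10, limma adjusted p = 4.99e-05). Exons of Kcnk3 overlap Gm9899 on the other strand over 5.76% of their bases. Kcnk2, a stretch-sensitive channel, averaged 35.8 ± 8.10 in TG_AAV and 40.8 ± 12.0 in the controls (log2 -0.15), and Kcnk5, Kcnk6 and Kcnk13 had log2 changes of -0.13, 0.03 and 0.25.

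Of the small-conductance channels opened by calcium, Kcnn3 rose and Kcnn2 fell against the mean of the controls. Kcnn3 had 198, 280 and 442 normalized counts in TG_AAV. It had 66.7, 32.0 and 45.2 in TG_saline, 36.8, 28.4 and 55.7 in WT_AAV, and 63.3, 38.9 and 63.0 in WT_saline. The TG_AAV libraries spread from 198 to 442, and all lay above every control library. The log2 change was 2.64 (SE 0.27, limma adjusted p = 3.40e-05), and the reads were 1108 in TG_AAV and 409 in the 9 control libraries. Kcnn2 had 124, 128 and 120 in TG_AAV, 143, 122 and 135 in TG_saline, 210, 191 and 184 in WT_AAV, and 208, 156 and 183 in WT_saline. TG_AAV overlapped TG_saline (log2 -0.10, limma adjusted p = 0.714), and both lay below all wild-type libraries. The log2 change of Kcnn2 against the controls was -0.43 (SE 0.10, limma adjusted p = 0.00858). Without the 3 libraries rich in Myl7 it was -0.42 with an adjusted p of 0.072. Kcnn1 did not pass, with 254 ± 18.3 in TG_AAV and 247 ± 22.6 in the controls (log2 0.04, 95% interval -0.16 to 0.24). Per kilobase, the ratio of Kcnn3 to Kcnn2 was 1.14 to 2.63 in TG_AAV, 0.188 to 0.333 in TG_saline, 0.106 to 0.216 in WT_AAV and 0.179 to 0.245 in WT_saline. In TG_AAV libraries alone the Kcnn3 level exceeded that of Kcnn2.

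Kcnma1, the large-conductance channel opened by calcium and voltage, averaged 23.7 ± 8.53 normalized counts in TG_AAV, 16.5 ± 7.83 in TG_saline, 21.9 ± 6.19 in WT_AAV and 8.12 ± 3.30 in WT_saline. It passed against WT_saline (log2 1.45, limma adjusted p = 0.0242) and not against the mean of the controls (0.69, adjusted p = 0.156). The call against WT_saline was lost without WT_saline 2, TG_AAV 1, TG_AAV 3 or the 3 libraries rich in Myl7 (adjusted p up to 0.123). Its auxiliary subunit Kcnmb1, a gene of smooth muscle, averaged 12.5 ± 7.16 in TG_AAV and 18.5 ± 6.31 in the controls (log2 -0.66, adjusted p = 0.251). Kcnt2, a channel opened by sodium, had a log2 change of -0.05. Both tested RNA genes without a known protein did not pass. Kcnq1ot1, the imprinted antisense transcript of Kcnq1, averaged 2130 ± 61.7 in TG_AAV and 2436 ± 424 in the controls (log2 -0.18, adjusted p = 0.316). Kcnd3os, antisense to Kcnd3, averaged 19.5 ± 2.11 in TG_AAV and 20.3 ± 4.72 in the controls. Exons of each overlap those of the sense gene, so without a known strand setting the reads of a pair cannot be told apart there.

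Set against each control group in turn, the counts of calls differed. Against TG_saline, which isolates the vector in hearts with the activator, 10 channel genes passed, 5 higher and 5 lower (21.7% of the 46, beside 6.09% of all genes tested, 3.69% higher and 2.40% lower). Among them were Kcnj4 (log2 2.44), Kcnn3 (2.64), Kcnj12 (0.65) and Kcnc1 (2.83) in the higher direction, and Kcnip2 (-1.15), Kcnk3 (-0.72), Kcnh2 (-0.67), Kcnv2 (-1.42) and Kcnq5 (-2.11) in the lower. Limma adjusted p-values were 0.000125 for Kcnip2, 0.000576 for Kcnn3, 0.0031 for Kcnk3, 0.00405 for Kcnj4 and 0.00774 for Kcnh2. The calls of Kcnip2, Kcnn3, Kcnk3 and Kcnh2 held in all alternatives computed. Kcnj4 and Kcnc1, counted in the totals above, passed the minimum only through TG_AAV, so their values are a description. The calls of Kcnv2, Kcnc1, Kcnj12 and Kcnq5 had adjusted p-values of 0.0362, 0.0376, 0.0457 and 0.0498. Each of these 4 was lost without TG_saline 1 and without any single TG_AAV library. Their adjusted p-values reached 0.156 for Kcnv2, 0.14 for Kcnc1, 0.177 for Kcnj12 and 0.191 for Kcnq5. Some were also lost without TG_saline 2 (all but Kcnv2), TG_saline 3 (Kcnj12, Kcnq5 and Kcnv2), WT_saline 1 (Kcnj12 and Kcnq5), WT_AAV 2 (Kcnc1 and Kcnq5) or WT_AAV 1 (Kcnq5). All 4 were lost without the 3 libraries rich in Myl7. By edgeR Kcnc1, Kcnv2 and Kcnq5 were lost. Kcnj12 and Kcnq5 were lost with quantile scaling and with no minimum beyond 1 read. Kcnv2 was lost with a robust variance estimate, and Kcnq5 with a pseudocount of 4. The number of calls was 5 without TG_saline 1, TG_AAV 2 or TG_AAV 3 (beside 3.22%, 3.07% and 3.42% of all genes). It was 6 without TG_saline 2, TG_AAV 1 or the 3 libraries rich in Myl7 (beside 3.84%, 3.28% and 4.01%).

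Against WT_AAV, 14 channel genes passed, 5 higher and 9 lower (30.4% of the 46, beside 18.8% of all genes tested, 10.6% higher and 8.17% lower), and against WT_saline 15 passed, 5 higher and 10 lower (32.6% beside 18.7%, 10.3% higher and 8.38% lower). Both comparisons share the TG_AAV libraries with the first, so their values are given side by side only. Kcnj3 had log2 changes of -0.75 against TG_saline, which did not pass (limma adjusted p = 0.102), -1.08 against WT_AAV and -1.12 against WT_saline. Kcnj5 had changes of -0.32 against TG_saline (adjusted p = 0.199), -0.74 against WT_AAV and -0.60 against WT_saline, and Kcnn2 had -0.10 (adjusted p = 0.714), -0.65 and -0.54 in the same order. Kcnv2 had -1.42, -3.21 and -3.25. Kcnn3 had 2.64, 2.87 and 2.41. Kcna6 passed against WT_AAV only (-0.84, adjusted p = 0.0493), in a call lost in 14 of 26 alternatives (adjusted p up to 0.577). Against WT_AAV, 8 genes passed without the 3 libraries rich in Myl7 (beside 5.46% of all genes). Kcnn2 (adjusted p = 0.106), Kcnj12 (0.368) and Kcnq5 (0.323) were among those that did not. Kcnj12 also lost this call without WT_AAV 1, WT_AAV 3, TG_AAV 2 or TG_AAV 3. Kcnq5 also lost it without TG_AAV 1 and without the 3 wild-type libraries that stand apart.

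The transgene without the vector gave no call among the channel genes, and Kcnj2 and Kcnv2 lay closest to the threshold. In TG_saline against WT_saline, 0 of 46 passed by limma (beside 0.0998% of all genes tested), and 11 had an unadjusted p under 0.05 (23.9%, beside 11.2% of all genes), 8 of them lower. By edgeR 0 passed (beside 0.276% of all genes), and by DESeq2 3 passed (beside 1.72%), all lower: Kcnj2, Kcnv2 and Kcnip2. Kcnj2 was 966 to 1198 normalized counts in TG_saline and 1621 to 2089 in WT_saline (log2 -0.73, SE 0.14, limma adjusted p = 0.0553). It passed by DESeq2 (adjusted p = 0.00062), with a robust variance estimate (0.0496) and with a term for libraries with high Xist (0.0426). Kcnv2 was 61.9 to 146 in TG_saline and 202 to 534 in WT_saline (log2 -1.83, SE 0.37, limma adjusted p = 0.0588). It passed by DESeq2 (0.0081) and without TG_saline 1 (log2 -2.21, 0.0397). Values on the log2 scale were -0.47 for Kcnip2 (limma adjusted p = 0.128, DESeq2 adjusted p = 0.0327), -0.40 for Kcnh2 (limma adjusted p = 0.217) and -0.44 for Kcnn2 (0.146). Kcnj14 passed without WT_saline 1 (4.79, adjusted p = 0.0395), and Kcnd2 without the 3 wild-type libraries that stand apart (-0.85, adjusted p = 0.045).

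The vector without the activator gave no call either. In WT_AAV against WT_saline 0 of 46 passed by limma (0% of all genes tested), 0 by edgeR (0%) and 0 by DESeq2 (0.0844%). An unadjusted p under 0.05 was found for 4 (8.70%, beside 3.94% of all genes). These 4 were Kcna1 (log2 0.79), Kcna2 (0.53), Kcnma1 (1.37) and Kcnj2 (-0.51), each with a limma adjusted p of 0.992. The 12 genes called against the controls had log2 changes of -0.48 to 0.22 between these groups.

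A test of the difference between the vector's effect in transgenic hearts and that in wild-type hearts passed for 4 of the 46 channel genes, 2 higher and 2 lower (8.70%, beside 0.852% of all genes tested, 0.614% higher and 0.238% lower). They were Kcnn3 (log2 3.10, SE 0.48, limma adjusted p = 0.00841), Kcnip2 (-1.06, SE 0.17, 0.0125), Kcnk3 (-0.87, SE 0.17, 0.0294) and Kcnj4 (2.92, SE 0.59, 0.0389). Kcnn3 passed in every alternative computed, and Kcnip2 in all but that without the 3 wild-type libraries that stand apart (-0.75, adjusted p = 0.0564). Kcnj4 lost the call in 11 of 25 alternatives, among them those without any single library except WT_saline 3 and WT_AAV 1, and Kcnk3 in 9 of 26, among them those without WT_saline 1, WT_saline 2, WT_AAV 1, WT_AAV 2, TG_saline 2, TG_saline 3, TG_AAV 2 or TG_AAV 3. Adjusted p-values reached 0.204 for Kcnj4 and 0.0949 for Kcnk3. Kcnj4, counted in the total above, passed the minimum only through TG_AAV, so its values are a description. Kcnh2 and Kcnv2 did not pass (log2 -0.71 and -1.38, limma adjusted p = 0.109 and 0.294), and Kcnh2 passed with a term for libraries with high Xist (-0.77, 0.0322). The number of calls was 2 without WT_saline 1, WT_saline 2, WT_AAV 2, TG_saline 2, TG_saline 3, TG_AAV 2, TG_AAV 3 or the 3 libraries rich in Myl7. The shares of all genes called were then 0.284% to 0.56%.

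**Figure D4:**
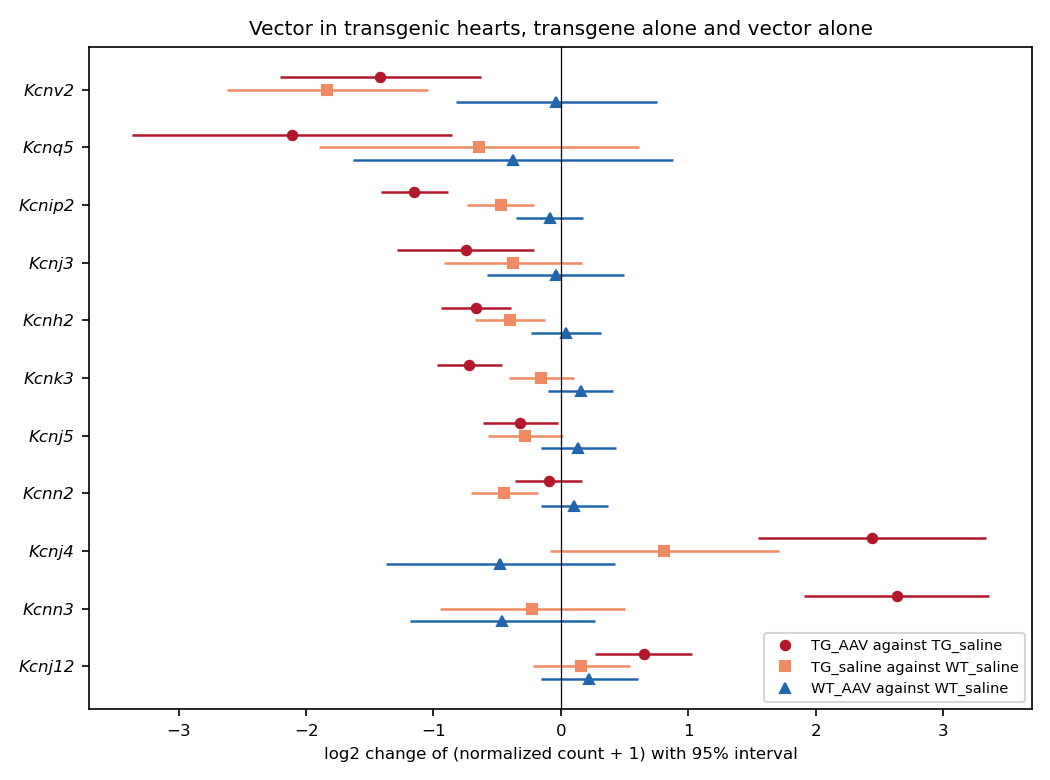
Log2 changes with 95% intervals of 11 called channel genes for the vector in transgenic hearts (TG_AAV against TG_saline, circles), the transgene alone (TG_saline against WT_saline, squares) and the vector alone (WT_AAV against WT_saline, triangles). Kcnn3 and Kcnj4 are far to the right for the vector in transgenic hearts only, while Kcnv2 lies to the left for that effect (-1.42) and for the transgene alone (-1.83).

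Levels between genes were compared per kilobase of merged exon. Over the controls the order began with Kcnk3 at 903, Kcng2 at 732, Kcnip2 at 618, Kcnj11 at 517, Kcnj5 at 356, Kcnj12 at 328, Kcnh2 at 323 and Kcnj3 at 293 normalized counts per kilobase. In TG_AAV it began with Kcng2 at 750, Kcnj12 at 522, Kcnk3 at 493, Kcnj11 at 475, Kcnj5 at 241, Kcnj8 at 230, Kcnip2 at 225 and Kcnj2 at 220. Kcnip2 was thus at rank 7 in TG_AAV and rank 3 in the controls, and Kcnj12 at rank 2 in TG_AAV and rank 6 in the controls. Kcnv2 was at 6.36 in TG_AAV (rank 36 of 46) and at 47.7 in the controls (rank 18). Kcnn3 was at 29.3 in TG_AAV and 4.57 in the controls, and Kcnj4 at 25.3 in TG_AAV and 2.76 in the controls. Kcnj4 passed the minimum only through TG_AAV, so its values are a description. These values share gene lengths from another build and take no account of which isoform was read.

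**Figure D5:**
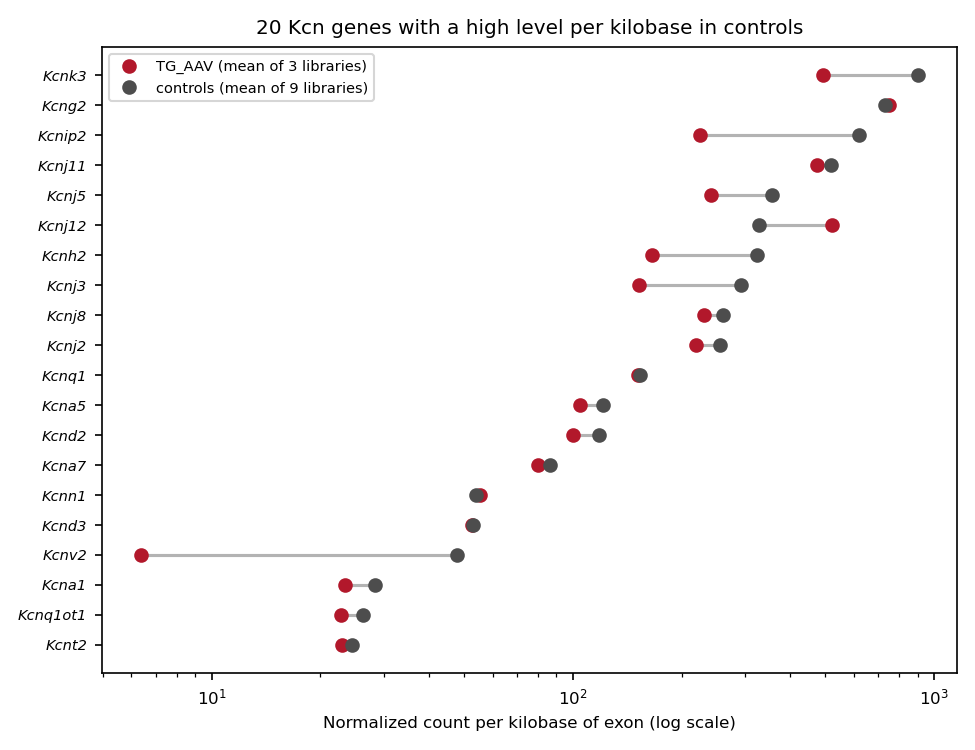
Mean normalized count per kilobase of exon (log scale) of 20 channel genes high in the controls, for TG_AAV (red, 3 libraries) and the controls (grey, 9 libraries). Kcnip2, Kcnk3, Kcnh2, Kcnj3 and Kcnv2 lie lower in TG_AAV, Kcnj12 lies higher, and Kcng2, Kcnq1 and Kcnd3 nearly coincide.

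Partner subunits without a Kcn symbol were also examined. Of 12 listed, 7 were tested, and 1 rose and 1 fell against the controls, beside 12.0% and 9.69% of all genes tested. Their median log2 change was -0.09. Besides Abcc9, described above, Calm3, a calmodulin gene whose protein is the calcium sensor of Kcnq and Kcnn channels, averaged 2522 normalized counts in TG_AAV, 2054 in TG_saline, 1558 in WT_AAV and 1538 in WT_saline (log2 0.57, SE 0.08, limma adjusted p = 0.00041). Against TG_saline 0 of the 7 partner genes rose and 1 fell, so the higher level of Calm3 did not pass there. Calm2 did not pass against the controls (-0.09). Of 8 regulators and anchors of cardiac potassium channels 0 rose and 0 fell by limma, beside the same shares of all genes, with a median of -0.08. Klf15, a factor that drives Kcnip2 in mouse heart, averaged 747 in TG_AAV, 903 in TG_saline, 1088 in WT_AAV and 986 in WT_saline (log2 -0.39, adjusted p = 0.107), and Irx5, a repressor of Kcnd2 in mouse ventricle, had a change of -0.41 (adjusted p = 0.126). Of the 4 related pacemaker channels 3 were tested. Hcn4, also listed as a conduction marker, averaged 117 in TG_AAV, 121 in TG_saline, 267 in WT_AAV and 210 in WT_saline. It was lower in TG_AAV than in the mean of the controls (log2 -0.66, limma adjusted p = 0.0351). Hcn2 did not pass against the controls (-0.35, adjusted p = 0.0709). Against TG_saline 0 of the 3 passed.

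At the threshold of detail, the lowest genes inside were Kcnc1, Kcnk5 and Kcnq5, and the highest outside were Kcnh1 with a mean of 9.99, Kcnt1 with 9.67 and Kcnip1 with 7.90 normalized counts. Kcnh1 had a mean of 10.9 over the control libraries. Of the 52 genes under a mean of 10, 39 had at least 1 read and 30 had a mean under 1.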

How the data were processed

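The values, deposited by the authors as 1 normalized count per gene symbol and library, are a signal unit of reads divided by a library factor. Bowtie2 2.0, DESeq2 and the build mm9 are named per the submitters' processing notes. For the counter, the annotation, the filters and the strand setting, nothing is given in the sources used here. In every library 100% of the positive values were within 0.01 of a whole multiple of that library's step, so whole reads were recovered for count models. Such factors hide a change shared by most genes. A spreadsheet had turned 27 symbols into dates, and these genes stay unnamed.

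The test was limma 3.58.1 in R 4.3.3 on log2 of each deposited value plus 1, with a variance trend and a mean for each group, in a single fit of all 12 libraries. This scale draws the change of low genes towards 0, and where libraries of a group are uneven a mean of logs can lie above or below the ratio of reads. Genes with a mean of 10 or more were tested, two-sided, with Benjamini-Hochberg adjustment over 13030 genes and a threshold of 0.05. The procedure was tested on simulated data. Lengths, overlaps and shared 36-base words came from GENCODE M21 on GRCm38, with lengths for 46 of 46 tested channel genes. Intervals on read ratios are exact conditional 95% intervals and cover counting error only.

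Tested Kcn genes are described, with those called in any comparison in full, and 3 of them, counted in every total, are not reported here by name. Below the minimum, up to 3 genes on each side of it are named. The genes, gene lists, markers and tests were chosen with earlier results of these data known. Alternatives were pseudocounts of 0.5 and 4, other minimum means, TMM and quantile scaling, robust variances, a term for the replicate number, fits of the compared groups alone, leaving out each library, and edgeR 4.0.16 and DESeq2 1.42.0 on recovered reads. Chosen after seeing the data were 3 more: omission of 3 libraries rich in Myl7, omission of 3 wild-type libraries that stand apart, and a term for Xist.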

Additional observations from a re-analysis of the deposited data

Results flagged for a closer look

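For 4 channel genes the effect of the vector differed between transgenic and wild-type hearts by limma's interaction test, with TG_AAV minus TG_saline set against WT_AAV minus WT_saline. The difference on the log2 scale was 3.10 for Kcnn3 (adjusted p = 0.00841), 2.92 for Kcnj4 (adjusted p = 0.0389), -1.06 for Kcnip2 (adjusted p = 0.0125) and -0.87 for Kcnk3 (adjusted p = 0.0294). In transgenic hearts the vector's log2 changes of these genes were 2.64, 2.44, -1.15 and -0.72, and in wild-type hearts -0.46, -0.48, -0.09 and 0.16. These 4 are 8.70% of the 46 genes, beside 0.852% of all genes tested. The call was lost for Kcnj4 in 11 of 25 alternatives, for Kcnk3 in 9 of 26 and for Kcnip2 in that without the 3 wild-type libraries that stand apart, and Kcnn3 kept it in those computed. Kcnj4 passed the minimum mean of 10 only through TG_AAV, so its values are a description.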

How the results depend on the processing

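Against the 3 control groups the number of channel genes called was 12, and 10 to 14 under every alternative computed (12 to 13 with 1 library left out). Over all genes tested the share called ran from 12.4% to 25.1% under the same alternatives, against 21.7% as reported. The calls lost there were those of Kcnn2 and Kcnq5, both without the 3 libraries rich in Myl7. With 1 library left out, the number was 5 to 10 against TG_saline, 11 to 18 against WT_AAV, 13 to 16 against WT_saline, 0 to 1 for TG_saline against WT_saline, 0 to 0 for WT_AAV against WT_saline, and 2 to 5 for the difference between the vector effects. The shares of all genes called were then 3.07% to 8.09% against TG_saline, 11.1% to 22.8% against WT_AAV, 11.5% to 21.6% against WT_saline and 0.299% to 1.47% for the difference. Without the 3 libraries rich in Myl7 it was 6 against TG_saline, 8 against WT_AAV and 2 for the difference between the vector effects, beside 4.01%, 5.46% and 0.284% of all genes. For TG_saline against WT_saline, where limma called 0, it was 3 with DESeq2, 1 with the robust variance estimate, 1 without the 3 wild-type libraries that stand apart and 1 with a term for libraries with high Xist. The shares of all genes called were 1.72%, 0.292%, 0.207% and 0.153% in the same order. No direction reversed among the called values. The labels do not say whether the replicate numbers pair the samples, and the correlations do not settle it. Deviations of same-numbered libraries correlated at -0.158 to 0.332, over 0.1 in 8 of 18 pairs. Of the 12 libraries, 9 correlated best on average with their own number. With the replicate block 14 channel genes were called against the controls (beside 23.8% of all genes), with Kcna6 (adjusted p = 0.00521) and Kcnj14 (0.038) added. The block gave 1 call in TG_saline against WT_saline (Kcnj2, adjusted p = 0.0206, beside 0.246% of all genes). It gave 4 for the difference between the vector effects (beside 1.2%). Scaling by TMM or quantiles moved the median of all genes by under 0.02 on the log2 scale. Depth limits the values of Kcnq5, Kcnc1 and Kcnj4 most, since they rest on few reads in a group.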
